A study of Homo sapiens with 8 samples.

Results

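Auxin-induced depletion of RPB1 was examined in DLD-1 cells, a human colorectal adenocarcinoma line, by factory-seq of nascent RNA. The comparison took the 4 DLD-1 libraries out of the 8 libraries of the series, chosen by their sample titles, and set 2 libraries from auxin-treated cells against 2 from untreated cells. In all 4 POLR2A carried mAID and mClover tags and TIR1 was inducible (DLD-1-mAID-mClover-POLR2A(Tet-OsTIR1)), so the untreated cells carried the same tagged allele and the same inducible TIR1 as the treated cells. Treated cells had received doxycycline for 24 h to switch on TIR1 and then auxin (indole-3-acetic acid, 500 µM) for 14 h, and the titles describe every library as from asynchronous cells. Whether untreated cells also received doxycycline, and whether any of these cells were sorted for G1, is not stated in the sources used here, so effects of auxin and of doxycycline cannot be told apart. The labels do not say how many clones the tagged line represents or whether the replicates were separate cultures, so p-values measure the spread between these libraries. The labels carry the treatment under the heading of the cell line and the cell line under that of the agent. Counts were available for 18638 gene models.

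RPB1, the product of POLR2A, is the largest and catalytic subunit of RNA polymerase II (Pol II), which transcribes protein-coding genes. An auxin-inducible degron is a short plant-derived tag that TIR1, a plant F-box protein, hands to the proteasome once auxin is present, so a tagged protein is lost within hours while its gene is left intact. Pol II starts at promoters, is held and then released by kinases such as P-TEFb, reads through the gene body and leaves the DNA beyond the 3′ end, while RNA that is already made decays at its own rate. Factory-seq isolates the RNA held at sites of transcription in nuclei, after DNase I treatment and release by caspases, and reads over introns are counted with those over exons. No spike-in is described, so every value below is a share of its own library, and a fall of all nascent RNA by a common factor would not be seen. Fewer contributing cells and less RNA per cell cannot be told apart either.

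Depth and background differed between the libraries along with the treatment. The 2 control libraries held 62626875 and 36906755 counts, and the 2 auxin libraries 14183633 and 10739622. The background was measured over 3111 genes of at least 5000 bp that were near silent in another colorectal line, the HCT116 controls. In each library the count of these genes rose almost in proportion to their length, with slopes of 0.932, 0.965, 0.955 and 0.968 of log2 count on log2 length. Extended over all gene models, this density made up 2.24% and 9.02% of control counts and 39.5% and 59.5% of auxin counts. Background reads amounted to 0.0229 and 0.0991 of all other reads in the controls against 0.652 and 1.47 after auxin. The silent genes of chromosome X lay at 0.511 to 0.555 of the common density in the 4 libraries, against 0.851 to 1.16 for the medians of the autosomes. Whether more background or less nascent RNA raised this share cannot be told apart without a spike-in.

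**Figure D1:**
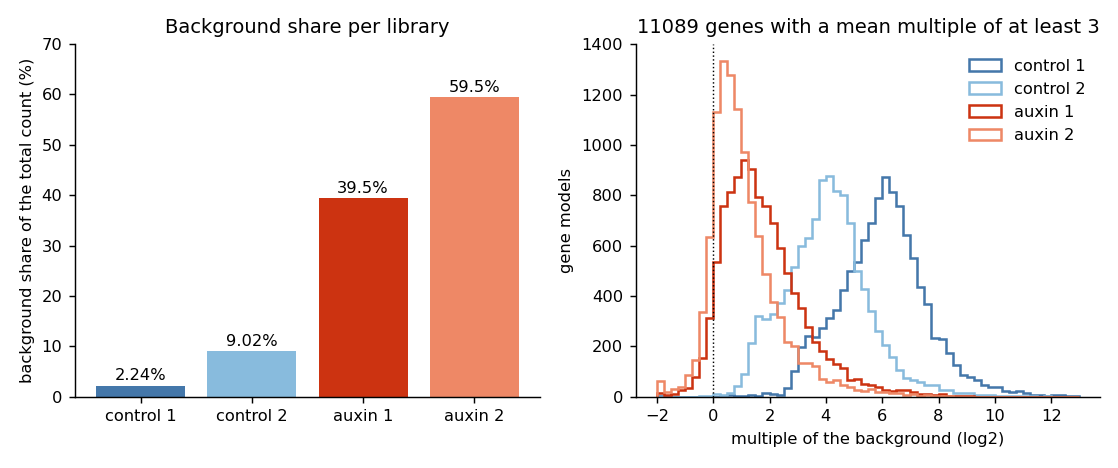
Left, share of the total count (%) that the background density accounts for in each DLD-1 library, 1 bar per library, from 2.24% in control 1 to 59.5% in auxin 2. Right, number of gene models by multiple of the background (log2 axis, values under 0.25 drawn at 0.25), for the 11089 tested genes with a mean multiple of at least 3; both auxin curves peak close to the dotted line at the background level, left of both control curves.

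Each gene was therefore described by its multiple of the background, which is its count divided by the count expected from its length alone. Among 11089 tested genes with a mean multiple of at least 3, the median multiple was 66.0 and 16.3 in the controls against 2.88 and 1.79 after auxin. In the auxin libraries 32.6% and 56.3% of these genes lay under a multiple of 2, compared with 0.198% and 0.812% in the controls. Both auxin libraries lay below both controls in the median.

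POLR2A was examined first because it carries the degron. It lies on chromosome 17 from 7484379 to 7514618 of hg38. Its level was 218 and 149 CPM (counts scaled to the library total) in the controls and 194 and 138 CPM after auxin, so the groups overlapped. Its multiple of the background was 368 and 62.5 in the controls against 18.6 and 8.79 after auxin. The log2 fold change on deposited counts was -0.78 (SE 0.32, edgeR adjusted p = 0.077) and was not called. With the background subtracted it was 0.41 (edgeR adjusted p = 0.15), and with the background made equal in all libraries it was 0.62 (edgeR adjusted p = 0.033). Auxin acts on the tagged protein, so this RNA does not report on the depletion of RPB1, and no protein was measured in these files.

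The comparison of auxin with control was made on deposited counts, on counts with the background subtracted, and on counts in which expected background reads were added until each library had the same ratio of background to other reads. On deposited counts 11855 of 17625 tested genes (67.3%) were called by edgeR's quasi-likelihood test at an adjusted p of 0.05, 5678 higher (32.2%) and 6177 lower (35%). After subtraction 3978 of 14355 genes were higher (27.7%) and 4602 lower (32.1%), and after equalisation 4538 of 18562 were higher (24.4%) and 3520 lower (19%). Genes called in the same direction in all 3 fits numbered 2930 lower (16.6%) and 1733 higher (9.83%), and "fell" and "rose" refer to these throughout. The 2 corrected fits alone shared 3140 lower (17.8%) and 3431 higher calls (19.5%). The falls numbered 1201 and 1162 without control 1 or 2, 1748 without auxin 1 and 2364 without auxin 2. Fewer genes rose when an auxin library was left out than when a control was. With 1 auxin library left the spread comes from the 2 controls alone. The drop is therefore no measure of how far the rises depended on both auxin libraries.

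All 2930 falls and 550 of the 1733 rises were among the 11089 genes with a mean multiple of at least 3, of which they made up 26.4% and 4.96%. The genes that fell had median multiples of 83.1 and 20.2 in the controls against 2.07 and 1.41 after auxin, and 827 of the 2930 were under 1.5 in both auxin libraries. The genes that rose were of 3 kinds. For 1477 of them at least 1 auxin library was under a multiple of 3, with medians of 2.08 and 1.53 after auxin against 1.85 and 1.37 in the controls. A further 168 had a mean control multiple of at least 10, with medians of 165 and 41.8, and still stood at 32.1 and 16.3 after auxin. The remaining 88 had a mean control multiple under 10, at medians of 2.99 and 2.05, and stood at 6.45 and 3.596 after auxin. Across the 17625 tested genes the medians were 27.2, 7.06, 1.83 and 1.37 in the same order of libraries. The silent genes that set the background made up 378 of the 1733 rises and 48 of the 2930 falls. Of these 378 rises, 371 were among the 1477 with an auxin library under a multiple of 3. Silent genes were 2886 of the 17625 tested, so a call in all 3 fits did not keep them out of the rises.

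**Figure D2:**
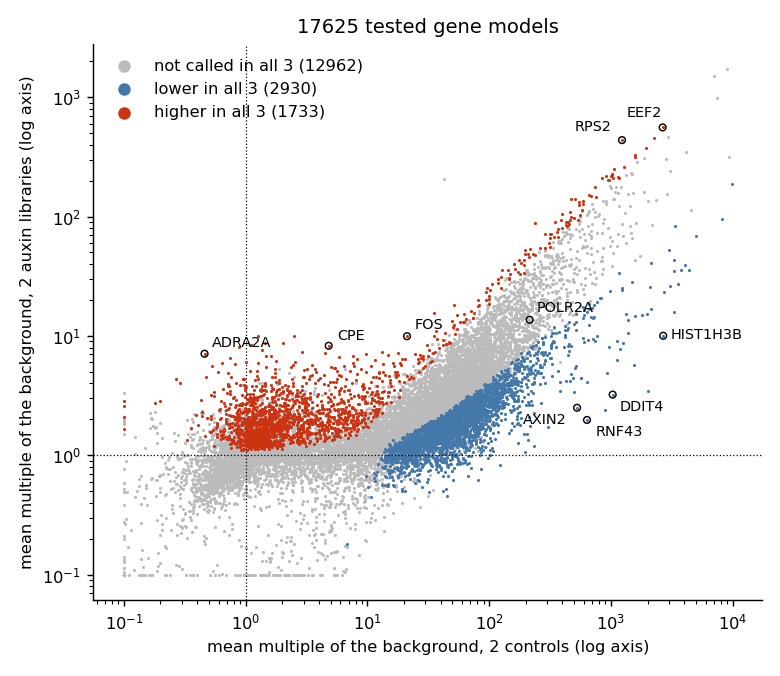
Mean multiple of the background over the 2 control libraries (x, log axis) and the 2 auxin libraries (y, log axis) for 17625 tested gene models, with values under 0.1 drawn at 0.1 and dotted lines at the background level. Genes called lower in all 3 fits (2930) lie along the lower edge of the expressed genes, and genes called higher in all 3 (1733) lie both at the upper edge and in a group at low multiples in the controls.

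Replication-dependent histone genes had the lowest median fold change of the lists examined, on deposited and on equalised counts. They encode the core and linker histones, are transcribed in S phase, and give short transcripts without introns or a poly(A) tail. Of 63 genes counted, 51 were tested, of which 39 fell and 1 rose, beside 16.6% and 9.83% of all genes tested. Falls made up 26.4% of genes with a mean multiple of at least 3. The median log2 fold change of the list was -3.31 on deposited counts and -1.69 after equalisation, against -0.06 and 0.02 over all genes tested. The falls numbered 28 without either auxin library, and 17 and 16 without control 1 or 2. The summed level of the list was 1769 and 1891 CPM in the controls and 406 and 334 CPM after auxin. The single rise was that of HIST1H1A, a linker histone gene, with 0.0639 and 0.135 CPM in the controls and 2.05 and 1.21 CPM after auxin. In the controls 3 reads correspond to 0.0479 and 0.0813 CPM, so its control values rested on few reads. Histone copies are near identical, and how shared reads were assigned is not stated, so values of single copies are uncertain.

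HIST1H4B, which encodes histone H4, had 23.6 and 19.1 CPM in the controls and 0.353 and 0.745 CPM after auxin. Its log2 fold change was -5.96 (SE 0.46, edgeR adjusted p = 0.0042), the first of the falls at a mean multiple of at least 3, ranked by the smallest of the 3 absolute fold changes. HIST1H4L, another H4 copy, fell from 9.56 and 12.5 CPM to 0.353 and 0.372 CPM. The groups lie apart in each of these genes by their choice, and the auxin values rested on 5 and 8 reads for HIST1H4B and on 5 and 4 for HIST1H4L. HIST1H3B, an H3 gene, went from 39.6 and 40.6 CPM to 1.97 and 1.96 CPM, and it remained at 12.1 and 7.96 times the background after auxin. HIST1H1D, a linker histone gene, went from 38.3 and 35.4 to 1.27 and 2.70 CPM. The H2B gene HIST1H2BJ and the H2A gene HIST1H2AB had log2 fold changes of -4.62 and -4.58 (SE 0.26 and 0.39).

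The promoters of the 3 leading histone genes of different classes are given as examples. The bases are those directly before the start site of RefSeq on GRCh38.p14, which can differ from that of the counted model. They are given 5′ to 3′ on the gene's strand, with matches in capitals to 3 motifs. These are TATAAA, read on the given strand only, CCAAT, read on both strands, and CTTTG, also read on both.
HIST1H4B (RefSeq H4C2), chr6:26027284-26027533, minus strand: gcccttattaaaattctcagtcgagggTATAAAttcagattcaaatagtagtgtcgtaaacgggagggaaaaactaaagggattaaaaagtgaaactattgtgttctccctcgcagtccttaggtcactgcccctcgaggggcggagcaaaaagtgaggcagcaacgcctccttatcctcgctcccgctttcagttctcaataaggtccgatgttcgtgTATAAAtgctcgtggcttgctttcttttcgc
HIST1H3B (RefSeq H3C2), chr6:26032100-26032349, minus strand: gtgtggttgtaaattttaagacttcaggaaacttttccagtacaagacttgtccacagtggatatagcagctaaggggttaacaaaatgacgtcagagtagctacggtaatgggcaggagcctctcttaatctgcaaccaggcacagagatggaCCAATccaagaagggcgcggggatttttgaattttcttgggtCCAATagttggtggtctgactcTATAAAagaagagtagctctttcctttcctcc
HIST1H1D (RefSeq H1-3), chr6:26234988-26235237, minus strand: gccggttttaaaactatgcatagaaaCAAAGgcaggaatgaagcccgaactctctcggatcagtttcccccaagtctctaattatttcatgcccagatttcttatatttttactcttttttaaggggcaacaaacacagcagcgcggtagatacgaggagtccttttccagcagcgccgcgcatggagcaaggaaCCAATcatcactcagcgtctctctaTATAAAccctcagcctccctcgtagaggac
Each holds a TATAAA shortly before the start site. TATAAA stood in 34 of 58 histone promoters with a sequence (58.6%) and in 942 of the 14785 gene models with one (6.37%), both over the 250 bases before the start. CCAAT stood in 50 of the 58 (86.2%) and in 34.6% of all, but not in the window of HIST1H4B. Among the promoters of all falling genes with a sequence, TATAAA stood in 3.97% and CCAAT in 34.4%, so the histone pattern was not that of the falls at large. With histone genes left out, 13 of the falls with every log2 fold change below -2 had a sequence. TATAAA stood in 3 of these 13 and CCAAT in 6. A match of letters describes the window and does not show a bound factor.

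Targets of Wnt signalling held 12 falls among 26, beside 16.6% of all genes tested, with RNF43 and AXIN2 among the largest falls of all. DLD-1 cells carry a truncated APC, the scaffold that limits beta-catenin, and beta-catenin with TCF factors holds these genes active in colorectal cancer. None of the 26 members rose in all 3 fits, and their median was -0.82 on deposited counts and -0.30 after equalisation. The falls numbered 7 without control 1, without control 2 or without auxin 1, and 9 without auxin 2. RNF43, a ubiquitin ligase that removes Frizzled receptors from the cell surface, lies on chromosome 17 from 58352500 to 58417582. It had 1311 and 1247 CPM in the controls and 58.7 and 45.6 CPM after auxin, a log2 fold change of -5.25 (SE 0.28, edgeR adjusted p = 0.0042). From 1029 and 243 times the background it came to 2.61 and 1.35 times, so it was near the background after auxin. AXIN2, a scaffold of the beta-catenin destruction complex and a feedback target of the pathway, went from 560 and 496 CPM to 36.6 and 31.0 CPM, with a log2 fold change of -4.60 (SE 0.24).

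MYC, a transcription factor and Wnt target in colon, had 51.4 and 49.7 CPM in the controls and 4.58 and 2.79 CPM after auxin, at 2.48 and 1.00 times the background. BMP4, a secreted growth factor, went from 284 and 273 CPM to 28.9 and 21.5 CPM and stayed at 11.8 and 5.82 times the background. LGR5, ASCL2, EPHB2, EPHB3, SOX4, SOX9, TCF7 and ZNRF3 made up the rest of the 12. CCND1, the cyclin D1 gene, was the exception that both corrected fits called higher. The groups lie apart in each of RNF43, AXIN2, MYC and BMP4 by their choice, since they were called in all 3 fits.

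DDIT4, SLC38A2 and PRSS3 were, beside histone genes and Wnt targets, the others of the 12 largest falls. DDIT4, an inhibitor of mTORC1 signalling, lies on chromosome 10 from 72273919 to 72276039. It had 71.7 and 57.2 CPM in the controls and 2.75 and 2.98 CPM after auxin, with a log2 fold change of -5.13 (SE 0.26, edgeR adjusted p = 0.0042). SLC38A2, a neutral amino acid transporter, went from 520 and 493 CPM to 44.4 and 28.9 CPM, and its fold change was -4.42 (SE 0.32). PRSS3, a trypsinogen gene, went from 361 and 344 CPM to 24.2 and 24.95 CPM, which were 1.44 and 0.983 times the background. Of 20 targets of ATF4, the transcription factor of the integrated stress response, 7 fell and 1 rose, beside 16.6% and 9.83% of all genes. These 7 were CHAC1, DDIT3, SLC7A5, CEBPB, NUPR1, SLC7A11 and TRIB3, while CTH, a cysteine-producing enzyme, rose. The falls in this list were 5 without either auxin library and 4 and 3 without control 1 or 2. TRIB3, a pseudokinase, went from 105 and 101 CPM to 6.35 and 9.22 CPM and stood at 1.09 and 1.05 times the background.

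The promoters of RNF43 and DDIT4, the 2 largest falls outside the histones, are given with the same motifs in capitals.
RNF43, chr17:58417535-58417784, minus strand: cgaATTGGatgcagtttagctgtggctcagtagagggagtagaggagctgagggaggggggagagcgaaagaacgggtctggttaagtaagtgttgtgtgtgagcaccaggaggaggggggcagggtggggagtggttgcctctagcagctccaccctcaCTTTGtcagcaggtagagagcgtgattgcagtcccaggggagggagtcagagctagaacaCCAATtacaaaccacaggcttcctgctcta
DDIT4, chr10:72273674-72273923, plus strand: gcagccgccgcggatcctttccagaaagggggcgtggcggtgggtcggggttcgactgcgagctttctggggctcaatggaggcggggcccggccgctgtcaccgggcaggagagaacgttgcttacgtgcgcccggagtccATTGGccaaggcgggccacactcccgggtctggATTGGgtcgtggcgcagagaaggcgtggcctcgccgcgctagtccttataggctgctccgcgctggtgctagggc
The RefSeq start of each differs from that of the counted model, so both windows run into the model. The DDIT4 window ends at 72273923, and its model starts at 72273919. The RNF43 window begins at 58417535, and its model, on the minus strand, starts at 58417582. The CCAAT of RNF43 at -30 therefore lies within the counted model. TATAAA is found in neither window. The core of TCF sites, CTTTG, occurred on either strand in 37.5% of all gene models with a sequence, and in 2 of the 6 falling Wnt targets with a sequence.

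Hypoxia and nutrient stress genes went both ways, with 6 falls and 5 rises among 22. Over all genes tested 16.6% fell and 9.83% rose. Among genes with a mean multiple of at least 3 the shares were 26.4% and 4.96%. VEGFA, an angiogenic growth factor, went from 133 and 134 CPM to 39.7 and 33.8 CPM, and SLC2A1, the glucose transporter GLUT1, from 297 and 241 CPM to 84.7 and 64.5 CPM. HK2, NDRG1, KDM3A and DDIT4 fell too. The rises were ALDOA and PGK1, both glycolytic enzymes, P4HA1, PFKFB4 and EGLN3. The rises numbered 0 without auxin 1 or control 2 and 1 without auxin 2 or control 1, whereas 4 or 5 of the 6 falls were.

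**Figure D3:**
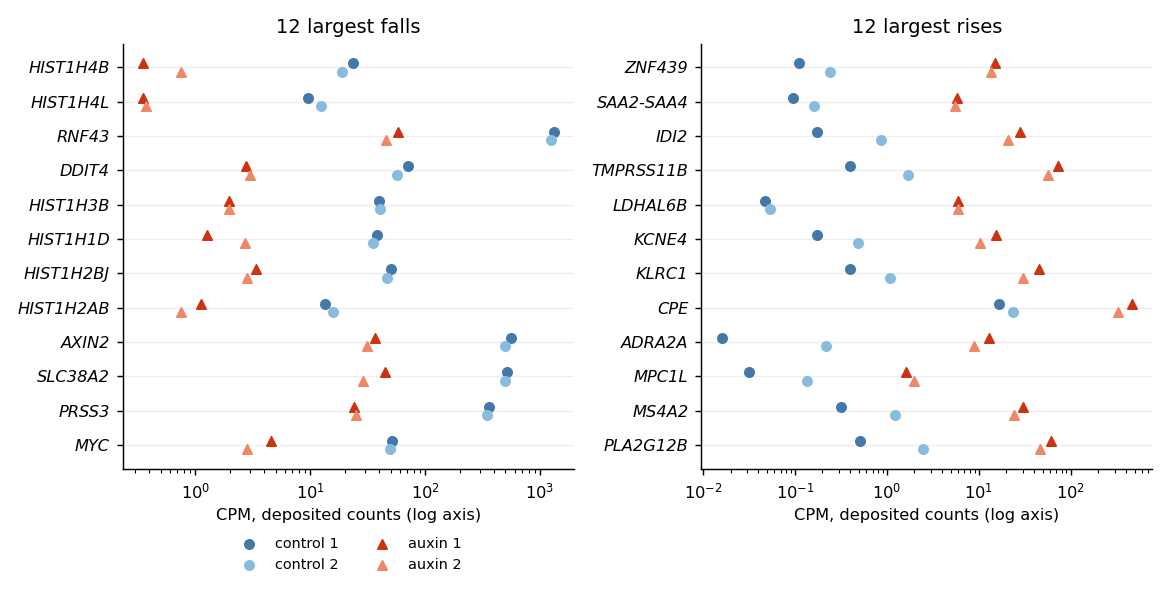
CPM on deposited counts (log axis) of the 12 largest falls (left) and 12 largest rises (right) among genes called in all 3 fits with a mean multiple of at least 3, ranked from the top by the smallest of the 3 absolute fold changes. Circles stand for the 2 control libraries and triangles for the 2 auxin libraries. The choice of genes fixes that the groups lie apart, and the plot shows how far and at which level.

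Genes of mitosis and of DNA replication were examined as groups of the cell cycle. Of 33 mitotic genes 20 fell and none rose in all 3 fits, beside 16.6% and 9.83% of all genes tested. The medians of this list were -1.76 on deposited counts and -0.44 after equalisation. The falls were 16 and 17 without auxin 1 or 2, and 11 and 12 without control 1 or 2. ASPM, a spindle pole protein, went from 409 and 394 CPM to 90.1 and 77.6 CPM (log2 fold change -2.90, SE 0.20). CCNB1, the cyclin of mitotic entry, went from 84.8 and 68.3 CPM to 20.3 and 16.0 CPM. CDC20, an activator of the anaphase-promoting complex, and PLK1, a mitotic kinase, had log2 fold changes of -2.67 and -2.47 (SE 0.29 and 0.24). PLK1 overlaps the ERN2 model, so its reads may be shared. BIRC5, NUSAP1 and SMC2 were called higher by both corrected fits. In DNA replication, CDT1, which licenses origins, was the 1 fall among 28 members, and both corrected fits called 10 higher and 1 lower. On deposited counts 16 of the 28 were lower and 1 higher, and the median was -0.87, against 0.24 after equalisation. The difference between the lists was not tested, and whether any cells were sorted by cell cycle phase is not known.

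Of the 12 genes for subunits of Pol II itself, none was called in all 3 fits. Their median log2 fold change was -0.12 on deposited counts, 0.99 with the background subtracted and 0.86 after equalisation. Both corrected fits called POLR2B, POLR2C, POLR2D, POLR2E, POLR2G, POLR2K and POLR2L higher. POLR2B, the second largest subunit, had 176 and 166 CPM in the controls and 253 and 185 CPM after auxin, and stood at 14.0 and 6.77 times the background after auxin. POLR2L had 16.6 and 15.2 CPM in the controls and 32.6 and 24.5 CPM after auxin, with a fold change of 1.57 after equalisation (edgeR adjusted p = 0.002). The sign on deposited counts depended on scaling, since library totals alone moved the median of all genes from -0.06 to 0.57 and that of this list to 0.52.

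Among 19 genes for subunits of Pol I and Pol III 6 fell and 1 rose, where falls made up 16.6% of all genes tested and 26.4% of those with a mean multiple of at least 3. POLR1A and POLR1B, the 2 largest subunits of Pol I, had log2 fold changes of -2.17 and -1.84 (SE 0.20 each). POLR1C, shared by Pol I and Pol III, went from 28.8 and 21.5 CPM to 9.31 and 7.08 CPM. Only 1 of the 6 falls was called without either control, 2 without auxin 1 and 4 without auxin 2. POLR1A, POLR1B and POLR3B were at 1.07 to 1.79 times the background in the auxin libraries, so their levels there were close to the background.

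Among 31 genes of transcription elongation 14 fell and none rose, beside 16.6% and 9.83% of all genes tested. The median of this list was -0.27 after equalisation. CDK9, the kinase of P-TEFb that releases paused Pol II, went from 26.3 and 23.0 CPM to 9.38 and 5.21 CPM. PAF1 and LARP7, of the PAF complex and the 7SK particle, had log2 fold changes of -2.49 and -2.28 (SE 0.27 and 0.20). The subunits of the FACT histone chaperone, SSRP1 and SUPT16H, were called higher by both corrected fits, as were HEXIM1 and RTF1. The falls numbered 11 and 12 without auxin 1 or 2, and 7 and 8 without control 1 or 2.

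SR splicing factors and their kinases held 8 falls among 18 and no rise. Falls made up 16.6% of all genes tested and 26.4% of those with a mean multiple of at least 3. SRSF4 went from 228 and 242 CPM to 39.5 and 36.0 CPM (log2 fold change -3.27, SE 0.18), the kinase gene CLK4 from 76.5 and 85.8 CPM to 16.9 and 17.1 CPM, and SRSF6 from 131 and 136 CPM to 48.4 and 34.8 CPM. SRSF1 and SRSF9 were called higher by both corrected fits. Without each library in turn the falls numbered 6 or 7. Ribosome biogenesis factors held 8 falls among 24, including NOP56 of the box C/D snoRNP (129 and 88.2 CPM to 34.5 and 26.4 CPM) and the pseudouridine synthase DKC1 (57.7 and 47.8 to 20.2 and 15.8 CPM). NPM1, NCL, NOLC1, DDX21 and NOC2L of the same list were called higher by both corrected fits. Without 1 library the falls of this list were 3 or 4. Of the snoRNA host genes only TAF1D was in the table, and it fell, and the 2 nuclear-retained lncRNAs of a further list were not among the models counted.

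The share of genes that fell rose with gene length. The 11089 genes with a mean multiple of at least 3 were divided into 10 equal classes by length. In the shortest, from 273 to 4705 bp, 125 of 1109 genes fell (11.3%) and 91 rose (8.21%). In the longest, from 136830 to 1519058 bp, 601 of 1109 fell (54.2%) and 53 rose (4.78%). The share that fell was higher in each class than in the one before. The median log2 fold change after equalisation went from 0.25 to -0.31, and that on deposited counts from -0.51 to -1.11. With the background subtracted it went from 0.18 to -1.47, where genes left with few or no reads have fitted values that depend on the prior count. In the longest class the median multiple was 48.2 and 11.98 in the controls against 1.73 and 1.32 after auxin, and in the shortest 99.99, 23.3, 5.33 and 2.87.

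The gradient was present in each pairing of single libraries. On background-subtracted values the median difference of an auxin from a control library was lower in the longest than in the shortest class, with differences of -1.48 to -1.67 on the log2 scale over the 4 pairings. The same measure was 0.03 between the 2 controls and -0.10 between the 2 auxin libraries. It was also present at each level of expression. When these genes were split in 3 by multiple and, by length, again in 3, the shares that fell from short to long were 21.5%, 31.0% and 55.2% among the genes with the highest multiples. Among those with the lowest they were 3.74%, 10.0% and 23.0%. At the same multiple a longer gene has more reads and is called more readily, so these shares do not give the size of the change. From short to long the median log2 fold change after equalisation went from 0.28 to -0.31 at the highest multiples. At the lowest multiples it went from 0.06 to -0.13. Depth, background share and treatment moved together in these libraries, and their parts in the gradient were not tested. The difference between the extreme classes was 42.9 percentage points and ranged from 28.8 to 45.7 when each library was left out in turn.

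**Figure D4:**
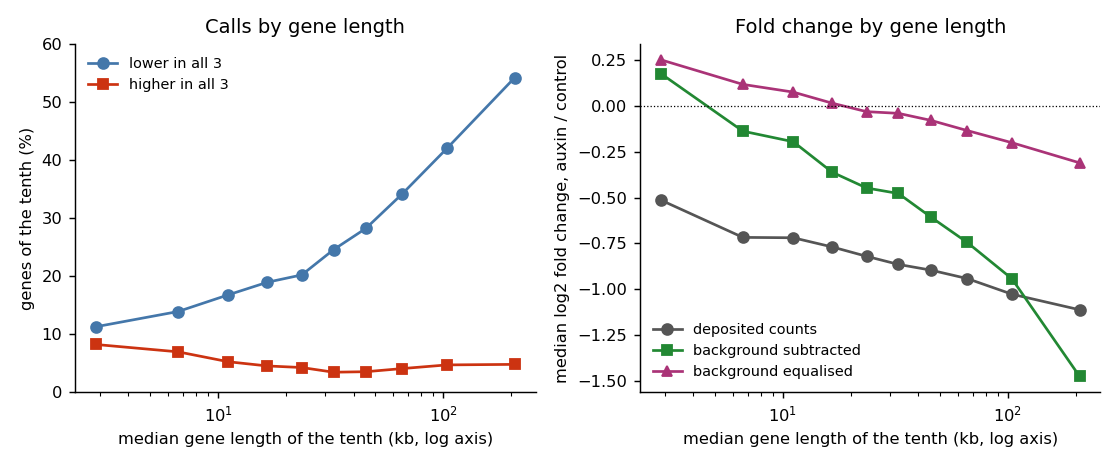
The 11089 tested genes with a mean multiple of at least 3 in 10 equal classes of length (x, median gene length in kb, log axis). Left, percentage of each class called lower or higher in all 3 fits, with falls at 11.3% in the shortest and 54.2% in the longest class. Right, median log2 fold change of auxin over control on deposited, background-subtracted and background-equalised counts, each lowest in the longest class.

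Genes longer than 500 kb were described apart, since the background bears most on them. Of 256 tested, 190 were higher and 47 lower on deposited counts, beside 32.2% and 35% of all genes tested. In all 3 fits 41 rose and 41 fell, beside 9.83% and 16.6% of all genes tested, so the falls were close to the general share. The median moved from 2.41 on deposited counts to 0.08 after equalisation. AGAP1, a GTPase-activating protein gene, went from 1442 and 1166 CPM to 287 and 339 CPM, which were 1.31 and 1.03 times the background. MAGI1 and PARD3B, both cell polarity scaffolds, had log2 fold changes of -2.19 and -1.99 (SE 0.26 and 0.23) and stood at 1.05 to 1.18 times the background after auxin. Without auxin 1 the falls numbered 7 and the rises 3, without auxin 2 they were 28 and 6, and without control 1 or 2 they were 20 and 23 with 18 rises each.

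Genes of cytoplasmic ribosomal proteins, which are short and give abundant mRNAs, held the highest share of rises of the lists. Of 76 genes of cytoplasmic ribosomal proteins tested, 33 rose and none fell, beside 9.83% and 16.6% of all genes tested. Both corrected fits called 75 higher. The median log2 fold change was 0.59 on deposited counts, 1.89 with the background subtracted and 2.08 after equalisation. The summed level was 5583 and 5468 CPM in the controls and 14593 and 11887 CPM after auxin. The median multiple of the background was 704 and 179 in the controls against 113 and 60.9 after auxin. The share of the reads thus rose while the median multiple did not. RPS2 had 89.5 and 126 CPM in the controls and 485 and 403 CPM after auxin, with a log2 fold change of 1.42 (SE 0.23, edgeR adjusted p = 0.01). RPLP2, a stalk protein, went from 40.02 and 48.9 CPM to 176 and 148 CPM. Both genes were named because they were called in all 3 fits, so the choice fixes that their groups lie apart. The number of rises was 2 without auxin 1, 21 without auxin 2 and 13 without either control, but 71 with library totals alone and 76 when scaling and testing used only genes with a mean multiple of at least 3. Processed copies of these genes are common in the genome, and how reads shared with them were counted is not stated.

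Other genes with a mean control multiple of at least 10 that rose are named here after their values were seen. EEF2, the elongation factor that moves the ribosome along mRNA, had 802 and 693 CPM in the controls and 2405 and 1792 CPM after auxin, and a log2 fold change of 0.85 (SE 0.28, edgeR adjusted p = 0.045). TMSB10, a small actin-binding protein, went from 74.1 and 72.0 CPM to 215 and 165 CPM. TUBA1B, an alpha-tubulin, and CALR, a chaperone of the endoplasmic reticulum, each had a log2 fold change of 0.80 (SE 0.27 and 0.24). While its CPM rose, the multiple of the background of EEF2 went from 4381 and 941 to 746 and 368. These counts take exons and introns together, so spliced and unspliced RNA cannot be told apart.

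Among 35 immediate early genes, which are induced by growth factors and stress without new protein synthesis, 4 rose and 3 fell, beside 9.83% and 16.6% of all genes tested. FOS, a subunit of AP-1, had 2.32 and 2.22 CPM in the controls and 16.2 and 11.4 CPM after auxin, with a log2 fold change of 1.97 (SE 0.37, edgeR adjusted p = 0.015). JUN, its partner, went from 1.98 and 2.06 CPM to 9.10 and 8.66 CPM, with an SE of 0.35 on a log2 fold change of 1.498. FOS stood at 34.2 and 8.15 times the background in the controls against 13.6 and 6.31 after auxin, and JUN at 30.4 and 7.86 against 7.93 and 5.00, so their share of the reads rose while their mean multiples did not. EGR2 and EGR3, zinc finger factors, also rose, but at 1.62 to 2.17 times the background they were close to it. NR4A1, DUSP5 and FOSL2 fell, and JUNB, KLF10 and IER5 were among 8 genes that both corrected fits called higher. No rise of this list was called without either auxin library, and 1 was called without either control. The falls of this list numbered 1 without each library in turn.

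The 12 largest rises were of genes with a mean multiple under 10 in the controls and of at least 3 in both auxin libraries. They entered the ranking through their auxin values, so the choice fixes that their groups lie apart. ADRA2A, an adrenergic receptor, had 0.0160 and 0.217 CPM in the controls, from 1 and 8 reads, and 13.04 and 8.94 CPM after auxin. Its log2 fold change was 6.08 (SE 1.04, edgeR adjusted p = 0.012), and it stood at 9.76 and 4.43 times the background after auxin. CPE, a carboxypeptidase of secretory granules, lies on chromosome 4 from 165378945 to 165498330 and had 16.6 and 23.7 CPM in the controls and 463 and 328 CPM after auxin (log2 fold change 3.67, SE 0.30, edgeR adjusted p = 0.0042). TMPRSS11B, a membrane serine protease, went from 0.399 and 1.71 CPM to 72.0 and 56.9 CPM. ZNF439, a zinc finger gene, went from 0.112 and 0.244 CPM to 14.9 and 13.6 CPM. Control 2, with the higher background, lay above control 1 in each. KCNE4 (a potassium channel subunit), KLRC1 (a natural killer receptor), IDI2 (an isomerase), PLA2G12B, MS4A2, SAA2-SAA4, LDHAL6B and MPC1L completed the 12, with log2 fold changes between 3.85 and 6.14. SAA2-SAA4 joins neighbouring near-identical genes and LDHAL6B lies within MYO1E, so their reads may be shared.

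Many of these genes lay beyond the 3′ end of an expressed gene. ADRA2A lies 63.4 kb from the end of SHOC2 and KCNE4 109 kb from that of ACSL3, CPE is 35.8 kb from the end of MSMO1, and TMPRSS11B 64.7 kb from that of YTHDC1. ZNF439 lies 30.8 kb from the end of ZNF440, IDI2 1.14 kb from that of GTPBP4, PLA2G12B 52.5 kb from that of P4HA1 and KLRC1 149 kb from that of MAGOHB. MPC1L lies 2.78 kb from the end of CXorf38, and no such neighbour was found for MS4A2 or SAA2-SAA4. Expressed neighbours were genes at or above the median reads per kb in the HCT116 controls, within 150 kb, and orientation was taken from the strand of each model.

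Over all tested gene models that overlap no other, 26.9% had only the 3′ end of an expressed gene within 150 kb and 26.9% only a start. Of the 1544 such genes that rose, 33.9% had only an end and 18.9% only a start. Of the 21 with every fold change above 2 on the log2 scale, 13 had only an end and 1 only a start. Of the 76 with a mean multiple under 10 in the controls and at 3 times or more in both auxin libraries, 34 had only an end (44.7%) and 6 only a start (7.89%). The well expressed rises did not share this, with 31.2% and 37.6% of 141 genes. Of the 2558 genes that fell, 26.5% had only an end and 31.3% only a start. Silent genes beside an end, beside a start or beside neither had median multiples of 0.960 to 1.02 in the 4 libraries. The background density is the median over these same silent genes, so values near 1 are largely fixed and are no check of the neighbour shares. The neighbour shares are counts over genes, which are not replicates, and no test was made.

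Each of the 12 falls shown was also called on deposited counts without each library in turn. Of the 12 rises, 3 were called without auxin 1 and 4 without auxin 2, although log2 fold changes remained between 3.46 and 6.33, and each of the 12 was called without either control. The neighbour pattern also moved with the filter, since the difference between the shares with only an end and only a start was 15.0 percentage points for all rises and 3.49 when scaling and testing used only genes with a mean multiple of at least 3.

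Markers of the colon epithelium were checked because they bear on the cell type. Of 17 genes 4 fell and none rose, beside 16.6% and 9.83% of all genes tested. The summed level was 7688 and 6675 CPM in the controls and 7183 and 5475 CPM after auxin. The transcription factors CDX2, HNF4A and KLF5 were among the falls. CDX2, which specifies intestinal identity, went from 60.9 and 59.2 CPM to 9.31 and 6.98 CPM, and KLF5 from 302 and 361 CPM to 71.8 and 52.98 CPM. The structural and adhesion genes KRT8, EPCAM, CDH1, VIL1 and MUC13 were called higher by both corrected fits. Markers of blood, endothelium, fibroblasts, neurons, hepatocytes and muscle summed to 90.2 and 173 CPM in the controls and to 822 and 1007 CPM after auxin. Their median multiple was 0.893 to 0.943 in all 4 libraries, so the list stayed at the level of the background. On deposited counts 20 of 24 were higher, and 7 rose in all 3 fits. PECAM1, an endothelial adhesion molecule, reached 4.81 and 2.49 times the background after auxin from 0.913 and 1.05 in the controls. RYR1 lay at 1.16 and 1.16 times in the controls and 1.71 and 1.45 after auxin. NEB stood at 11.7 and 3.48 times in the controls against 2.64 and 1.72 after auxin. ALB stood at 4.51 and 1.56 times against 2.51 and 1.77. The share of the reads of NEB thus rose while its multiple did not. Of these 7 rises 1 was called without either auxin library.

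Of 360 olfactory receptor genes, single-exon genes silent in most tissues, 172 were tested. Among these 25 rose and none fell, beside 9.83% and 16.6% of all genes tested. No read was found for 154 and 70 of the 360 in the controls, against 49 and 46 after auxin. Members with few control reads could pass the count filter only through their auxin reads. The lack of falls and the higher median multiple after auxin given below are therefore largely fixed by the filter. OR9Q2 had 1 read in each control and 32 reads in each auxin library, which were 6.03 and 5.27 times the background. The median multiple of the list was 0.860 and 1.47 in the controls against 1.96 and 1.89 after auxin, and none of the 25 rises was called without either auxin library. Zinc finger genes of chromosome 19, which lie in clusters, gave 42 rises and 28 falls among 234, beside 9.83% and 16.6% of all genes tested. The rises of this list numbered 1 and 2 without auxin 1 or 2 and 11 without either control. The falls were 14 and 22 without auxin 1 or 2, and 7 and 8 without control 1 or 2. ZNF844 rose from 0.766 and 1.76 CPM to 31.2 and 27.2 CPM and ZNF304 from 0.591 and 1.71 CPM to 18.5 and 19.1 CPM.

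The remaining lists held few calls in all 3 fits, beside 16.6% lower and 9.83% higher of all genes tested. Of 22 genes of cholesterol synthesis and uptake, 2 fell, SREBF1, a regulator of lipid synthesis, among them, while 9 enzymes and carriers including CYP51A1, DHCR7, IDI1 and MSMO1 were called higher by both corrected fits. Of 24 p53 targets, CDKN1A, the p21 gene, rose and GDF15, TNFRSF10B, XPC and DDB2 fell. GDF15, a stress cytokine, went from 85.3 and 103 CPM to 11.4 and 7.45 CPM. Of 37 subunits of respiratory complex I, NDUFV2, NDUFV3 and NDUFS4 fell and NDUFA5 rose, and both corrected fits called 24 higher and 3 lower. Rises in all 3 fits numbered 19 for complex I and 6 for p53 targets with library totals alone, and 27 and 7 when scaling and testing used only genes with a mean multiple of at least 3. Of 76 mitochondrial ribosomal proteins 12 fell, a share close to that of all genes, and none rose. These falls numbered 2, 1, 4 and 8 without control 1, control 2, auxin 1 or auxin 2, and the median was 0.12 after equalisation. Among 15 heat shock and ER chaperone genes HSPA8 and DNAJB1 fell and HSP90AA1 and CALR rose. HSPA8, the constitutive HSP70, went from 494 and 411 CPM to 75.6 and 53.4 CPM. Among 13 NF-kB targets NFKB1 fell and CCL20 rose, and among 25 interferon-stimulated genes IFI44 and IFI44L rose, at 1.30 to 2.28 times the background. Library totals alone shifted the median of all genes by the amount given above and each list with it, so signs of list medians near 0 on deposited counts depended on the scaling.

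**Figure D5:**
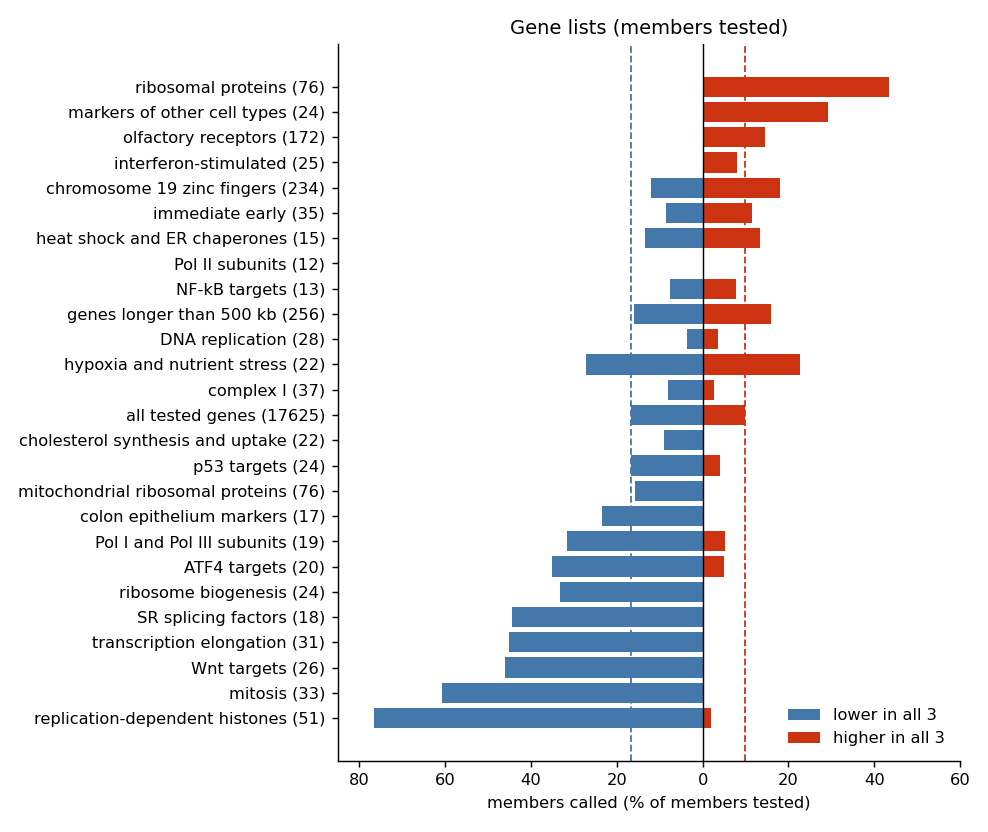
Percentage of the tested members of each gene list called lower (left, blue) or higher (right, red) in all 3 fits, with the number tested in parentheses. Dashed lines mark the same shares over all 17625 tested genes, 16.6% lower and 9.83% higher. Histone, mitosis and Wnt lists lie at the lower end and cytoplasmic ribosomal proteins at the upper end.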

How the data were processed

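Raw counts per RefSeq gene model, taken over the gene span with introns, were deposited by the authors in 1 table for DLD-1 and 1 for HCT116. Per the labels, STAR and DESeq2 were used with build hg38, and the library kit was TruSeq RNA. Counter settings, versions and use of strand: not given in the sources used here. The tables of the authors' own comparisons hold fold changes, p-values and normalized values and were not used. The paper supplied with the series describes another experiment, so no design was taken from it.

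Gene models were tested with edgeR 4.0.16 (quasi-likelihood, two-sided) in R 4.3.3, with filterByExpr, TMM scaling, Benjamini-Hochberg adjustment at 0.05, and 2 residual degrees of freedom. Silent genes were the lowest 20% of gene models of at least 5000 bp by reads per kb in the HCT116 controls, ranked within each chromosome with Y left out. Their median count per counted base was the background density of a DLD-1 library. Subtracted counts had a floor of 0 and were rounded. Equalised counts had expected background reads added up to the ratio of auxin 2. The 12 falls and 12 rises named had a mean multiple of at least 3 and ranked first by the smallest of the 3 absolute fold changes. In each list up to 4 called members in its main direction were named by the same ranking, with the Pol II subunits in addition, and further members are named to complete a count or were chosen after their values were seen. The 27 lists, the members and the tests were chosen with earlier results of these data known, and no set test was made. Counts of calls shared by both corrected fits were added after seeing the data. The replicate number as a block, DESeq2 1.42.0, other scalings, filters, background densities, 1 RUVs factor, thinning, a fold-change threshold and leaving out each library were tried as alternatives. In fits that left out 1 library, the single remaining library of that group took its spread from the other group. The fits were tested on simulated data. Promoters were matched by RefSeq transcript or symbol for 14785 gene models. Some genes of the lists are counted with their list but are not reported by name here.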

Additional observations from a re-analysis of the deposited data

How the results depend on the processing

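On deposited counts 11855 genes were called. This became 7142 with genes of a mean multiple of at least 3, of which 4063 were shared with the 11855 and 14 of them had the opposite sign, 1471 with 1 RUVs factor and 3131 with a fold-change threshold of 1 on the log2 scale. It ranged from 2393 to 12732 when each library was left out, with 2393 without auxin 1 and 3165 without auxin 2. With library totals alone 7544 were higher and 3377 lower. Falls in all 3 fits ranged from 1162 to 2364 and rises from 63 to 512 when each library was left out. With the replicate number as a block 12963 genes were called on deposited counts, and 2591 fell and 1340 rose in all 3 fits. The differences of replicate 1 from 2 correlated at 0.566 across 17625 genes between control and auxin, a description over 2 pairs, and the labels do not say what a number marks. The difference in falls between the longest and shortest genes was 42.9 percentage points and became 27.9 with genes of a mean multiple of at least 3 and 28.8 to 45.7 when each library was left out. The neighbour difference of 15.0 percentage points became 8.88 with library totals alone and 3.49 with genes of a mean multiple of at least 3, and was 24.4 to 32.7 when each library was left out. POLR2A turned from -0.78 to 0.083 with genes of a mean multiple of at least 3, to 0.41 with the background subtracted, 0.62 with it equalised, 0.17 with silent genes as the lowest 10%, 0.37 with a density per chromosome, 0.38 with a density per length class (an alternative added after seeing the data) and 0.62 with 1 RUVs factor. POLR3B turned to 0.048 with genes of a mean multiple of at least 3, and RYR1 to -0.15 with 1 RUVs factor. The causes were not tested. The 12 falls named first kept their calls on deposited counts under each alternative run. After auxin, 3 reads correspond to 0.211 and 0.279 CPM, against 0.0479 and 0.0813 CPM in the controls. Low genes are therefore measured less finely after auxin. Each SE given is the absolute log2 fold change divided by the square root of the quasi-likelihood F statistic.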
